A study of Mus musculus with 18 samples.

Results

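The 10 genes described here, Lyve1, Reln, Pdpn, Ptx3, Fgl2, Scg3, Pard6g, Tc2n, Klhl4 and Fxyd6, were chosen by large measured differences between endothelial cells of lymphatic vessels (LEC) and of blood vessels (BEC) in the mouse embryo, out of 19938 genes measured. Each gene was read from the transcript cluster (a set of probes summarised to 1 value) whose platform annotation gave its symbol alone, and each of the 10 had 1 such cluster. The study took RNA from LEC and from BEC at 3 embryonic days, 14.5, 16.5 and 18.5 (written E14.5 to E18.5), and read it on 18 arrays of the Affymetrix type Mouse Gene 1.0 ST, with 3 arrays for each of the 6 groups. The labels name the tissue as embryonic and give no strain, genotype or treatment, and the isolation of the cells is given by a citation that was not used here. The series' design states that LEC and BEC were matched within 3 independent litters at each age.

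Lymphatic vessels arise largely from embryonic veins, when venous endothelial cells switch on the transcription factor Prox1 and leave the vein. The resulting cells carry a hyaluronan receptor, a mucin-like glycoprotein that binds platelets, and secreted matrix and immune proteins that blood endothelium makes little of. As the vessels mature toward birth they split into blind-ended capillaries, which keep the hyaluronan receptor, and collecting vessels, which gain valves and smooth muscle and lose much of it. The genes considered here encode membrane receptors and glycoproteins (Lyve1, Pdpn), secreted proteins (Reln, Ptx3, Fgl2, Scg3), intracellular adaptors (Pard6g, Tc2n, Klhl4) and a regulator of the sodium pump (Fxyd6). All values are log2 expression values, on which a difference of 1 is a 2-fold difference. A level is comparable between arrays for the same gene, not between genes.

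Array medians lay between 5.43 and 5.58 and the lowest correlation between arrays of the same group was 0.976. The 10 pan-endothelial markers were above background in every group, and LEC had 8 of them lower and 0 higher than BEC over the 3 ages (median -1.06). Of 11 measured lymphatic markers outside the 10 genes, 10 were higher in LEC over the 3 ages (median difference 2.03), and all 11 blood endothelial markers were lower in LEC (median -3.43), by limma at an adjusted p under 0.05. Over all genes 18.2% were higher and 19% lower in LEC by this rule. Background was set at 4.71, the 95th percentile of the values of 1027 olfactory receptor genes, a family not known to act in endothelium. Markers of other cells also differed: all 16 macrophage markers (median 2.35), all 9 mast cell markers (2.68) and 10 of 12 keratinocyte and epithelial markers (0.86) were higher in LEC. In bulk RNA a change in the number of cells of a type and a change in RNA per cell cannot be told apart.

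The genes were gathered as those most restricted to LEC, a name that the data did not bear out for Scg3 and bore out only in part for Klhl4 and Fxyd6. Over the 3 ages the LEC minus BEC difference, which chose the genes, was 5.03 ± 0.07 (limma SE) for Lyve1, 4.74 for Fgl2, 4.68 for Reln, 4.25 for Tc2n, 4.13 for Ptx3, 3.79 for Pard6g, 3.21 for Pdpn, 2.47 for Fxyd6 and 1.68 for Klhl4. For Scg3 it was -0.07, from values below background on all 18 arrays, which give no comparison. Lyve1, Fgl2 and Reln held ranks 1, 2 and 3 among all 19938 genes, while Pdpn was 33rd, Fxyd6 122nd and Klhl4 329th. In 9 of the 10 genes every LEC array was above every BEC array at each of the 3 ages, as in 8.22% of all genes, and the choice of the genes fixes that count. Mrc1 (4.50), Sema3d (4.46), Scn3a (4.25), Prox1 (4.20) and Mmrn1 (4.03) were the 5 genes outside the set with the largest differences, so the set does not hold all genes of that size. Most of the genes gave signal on the BEC arrays, since 7 of the 10 exceeded the background bound of 4.71 on all 9 of them. Ptx3, Tc2n and Scg3 did not. Pard6g exceeded it narrowly, with a lowest BEC value of 4.82. Which cells in the BEC samples gave this signal was not tested.

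**Figure D1:**
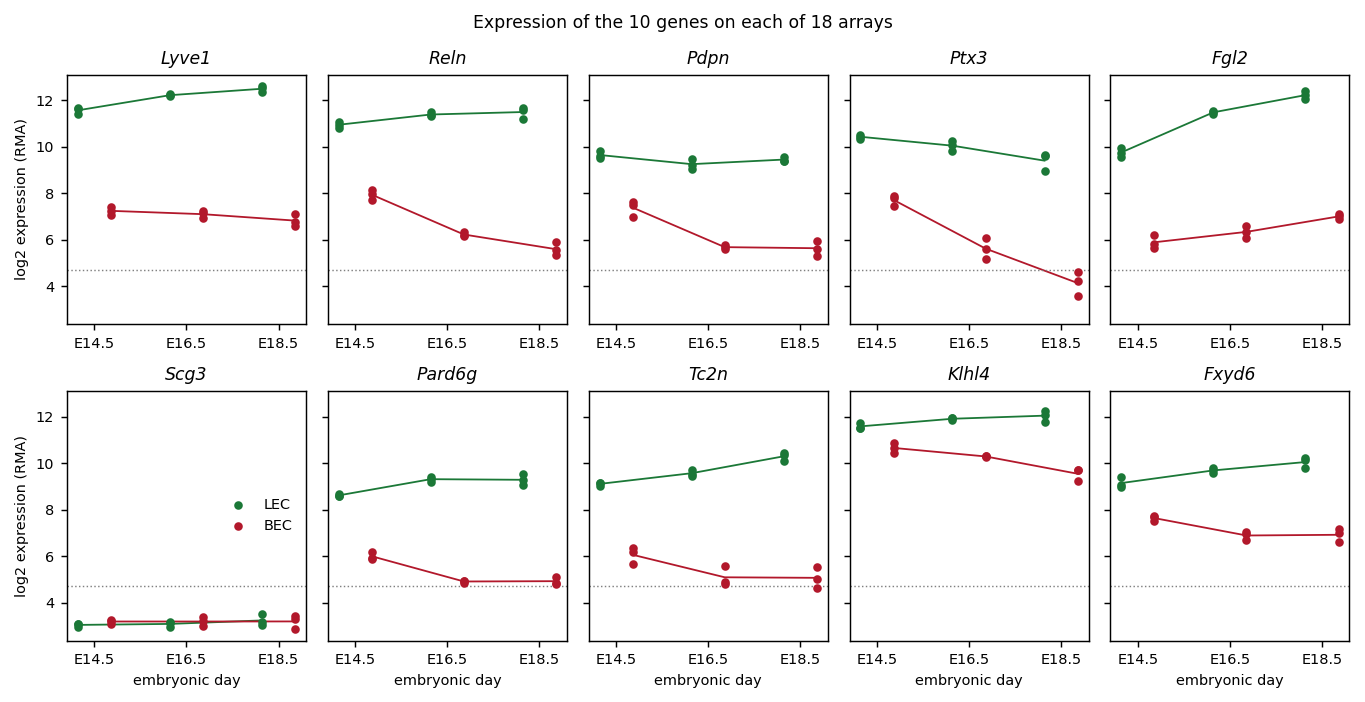
Log2 expression value (vertical axis) of each of the 10 genes on every array against embryonic day (horizontal axis), LEC in green and BEC in red, with lines through the group means of 3 arrays and a dotted line at the background bound of 4.71. The BEC points of Ptx3 descend past the bound by E18.5, the LEC points of Fgl2 climb, and both sets of Scg3 points lie together below the bound.

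**Figure D2:**
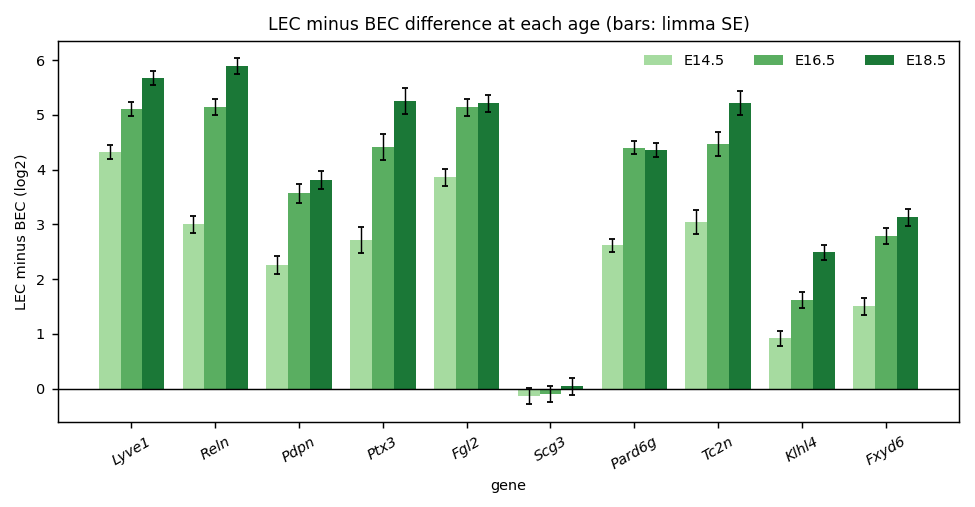
LEC minus BEC difference in log2 units (vertical axis) of each of the 10 genes (horizontal axis), with 1 bar for each embryonic age and limma standard errors as whiskers. Reln has the widest spread between ages, and the bars of Scg3, whose values are all below the background bound, are near 0.

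Upstream sequences are shown for the 4 genes with the largest changes with age: Reln, Pdpn and Ptx3, which fell most in BEC, and Fgl2, which rose most in LEC. Each is the 250 bases before the annotated start, 5′ to 3′ on the gene's strand, from RefSeq on build GRCm38.p6. Capitals mark matches, on either strand, to any of 7 motifs. For GATA factors the letters were AGATAA, for ETS factors CCGGAA, for SOX factors AACAAT and for AP-1 TGANTCA. For a nuclear receptor half-site they were AGGTCA, for an E-box CACCTG and for a TATA box TATAAA. No 2 matches overlapped. The Reln window is chr5:22344706-22344955 on the minus strand, Pdpn is chr4:143299565-143299814 on the minus strand, Ptx3 is chr3:66219637-66219886 on the plus strand and Fgl2 is chr5:21372423-21372672 on the plus strand.
Reln: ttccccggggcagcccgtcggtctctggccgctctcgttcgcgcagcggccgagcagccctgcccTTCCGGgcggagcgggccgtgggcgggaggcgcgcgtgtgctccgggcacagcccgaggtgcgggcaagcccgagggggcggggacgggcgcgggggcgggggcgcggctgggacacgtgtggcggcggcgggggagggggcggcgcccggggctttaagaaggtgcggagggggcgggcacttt
Pdpn: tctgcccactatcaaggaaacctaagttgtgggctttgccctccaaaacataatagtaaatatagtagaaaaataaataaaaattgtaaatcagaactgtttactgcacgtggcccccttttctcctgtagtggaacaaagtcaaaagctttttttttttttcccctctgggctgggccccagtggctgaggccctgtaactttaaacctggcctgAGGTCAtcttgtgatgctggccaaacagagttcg
Ptx3: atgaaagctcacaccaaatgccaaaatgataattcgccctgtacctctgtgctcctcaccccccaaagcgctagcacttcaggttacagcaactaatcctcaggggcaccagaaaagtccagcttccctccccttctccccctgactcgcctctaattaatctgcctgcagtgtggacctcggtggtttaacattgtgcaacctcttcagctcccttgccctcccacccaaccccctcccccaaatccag
Fgl2: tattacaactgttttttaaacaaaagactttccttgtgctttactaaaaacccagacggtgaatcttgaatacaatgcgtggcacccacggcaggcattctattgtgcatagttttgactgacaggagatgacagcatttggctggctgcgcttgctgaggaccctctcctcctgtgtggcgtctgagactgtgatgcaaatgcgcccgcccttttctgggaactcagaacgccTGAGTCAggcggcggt

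The Reln window is the richest in G and C of the 4, at 80.0% with 37 CpG pairs, against 54.0% in Ptx3, 49.6% in Fgl2, 43.2% in Pdpn and a median of 52.4% over 32536 mouse promoter windows. Its capitals are the ETS letters on the opposite strand, 185 bases before the start, and 12.1% of all windows hold that motif. The capitals of Pdpn are the nuclear receptor half-site, 34 bases before the start, present in 14% of windows. In Fgl2 they are the AP-1 letters, 16 bases before the start, present in 6.73% of windows, and none of the 7 motifs was found in the Ptx3 window. Windows of 8 of the 10 genes were examined, 9 in all because Tc2n had 2. No window of Lyve1 or Pard6g was used, so the motif counts do not cover these genes. The half-site also occurred in Klhl4 and the E-box (17.3% of windows) in Fxyd6 and in 1 window of Tc2n. The motifs of GATA factors, SOX factors and the TATA box, held by 9.97%, 9.35% and 12.3% of all windows, were in none of the 9. A match is only a match of letters.

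The question that the time course can answer for these genes is how each changed within LEC and within BEC. The rule chose the genes for large LEC minus BEC differences and names no age. A choice on a later age would favour LEC rises and BEC falls. Counts of calls over the set are therefore descriptions and not independent of the choice. The LEC change minus the BEC change of a gene is made of LEC minus BEC values, on which the genes were chosen. The adjusted p values given below for that difference are likewise not independent of the choice. The test was limma's moderated test on all 18 arrays, adjusted by Benjamini-Hochberg over the 19938 genes, and an adjusted p under 0.05 is a call. The arrays of an age enter both the step that ends at it and the step that begins at it, and the same BEC arrays enter the BEC changes and the difference between LEC and BEC changes.

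Lyve1 encodes the hyaluronan receptor used as a marker of lymphatic capillaries, which is also carried by some tissue macrophages. Lyve1 read 11.42, 11.63 and 11.66 on the LEC arrays of E14.5, against 7.26, 7.08 and 7.41 on the BEC arrays. At E16.5 Lyve1 had 12.20, 12.25 and 12.21 in LEC and 7.15, 7.24 and 6.93 in BEC. At E18.5 Lyve1 had 12.36, 12.62 and 12.51 in LEC and 7.10, 6.77 and 6.62 in BEC. The 3 LEC ages stood in order with no overlap between neighbours, while neighbouring BEC ages overlapped. In LEC, Lyve1 rose by 0.65 ± 0.13 from E14.5 to E16.5 (limma SE, adjusted p = 0.002) and by 0.93 over the whole span (adjusted p = 1.1e-05). The step from E16.5 to E18.5 was 0.28 (adjusted p = 0.11). In BEC the gene fell by 0.42 ± 0.13 from E14.5 to E18.5 (adjusted p = 0.019), a call lost without BEC E14.5 replicate 1 or 3, without BEC E18.5 replicate 2 or 3 (adjusted p up to 0.1), after quantile normalization (0.061) and when only the 2 compared groups were fitted (0.062). The LEC change exceeded the BEC change from E14.5 to E16.5 by 0.79 ± 0.18 (adjusted p = 0.023). With litter as a fixed block the adjusted p was 0.061, and it was 0.05 to 0.081 without LEC E14.5 replicate 1, LEC E16.5 replicate 1 or 3, BEC E14.5 replicate 1 or 3, or BEC E16.5 replicate 3. From E16.5 to E18.5 the LEC change exceeded the BEC change by 0.55 ± 0.18 (adjusted p = 0.1). That passed the threshold with trend and robust (0.038) and without BEC E18.5 replicate 1 (0.033).

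Pdpn encodes podoplanin, the transmembrane glycoprotein that binds CLEC-2 on platelets and, in mice, is needed to keep blood and lymph vessels apart. Keratinocytes, some macrophages and some fibroblasts make it too. Pdpn was at 9.59, 9.54 and 9.82 in LEC at E14.5, against 7.65, 7.00 and 7.52 in BEC. At E16.5 Pdpn was at 9.04, 9.49 and 9.24 in LEC and 5.61, 5.69 and 5.77 in BEC. At E18.5 Pdpn was at 9.40, 9.55 and 9.41 in LEC and 5.63, 5.33 and 5.97 in BEC. In LEC the E14.5 arrays stood above those of E16.5 and overlapped those of E18.5, which overlapped E16.5, and in BEC the E14.5 arrays stood above those of both later ages, which overlapped. No age step of Pdpn in LEC passed the test (-0.39 ± 0.17, adjusted p = 0.14, then 0.20, adjusted p = 0.39). In BEC Pdpn fell by 1.71 ± 0.17 from E14.5 to E16.5 (adjusted p = 5.2e-06), the sixth largest fall of all genes in that step, and then differed by -0.04 (adjusted p = 0.85). The LEC minus BEC difference was 2.26, 3.57 and 3.81 at the successive ages. The first of these steps differed between LEC and BEC by 1.31 ± 0.24 (adjusted p = 0.0045).

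Reln encodes reelin, a secreted matrix glycoprotein best known for guiding migrating neurons, which lymphatic endothelium also makes. Reln read 10.83, 10.96 and 11.06 in LEC at E14.5, against 8.14, 7.72 and 7.97 in BEC. At E16.5 Reln read 11.37, 11.32 and 11.48 in LEC and 6.20, 6.32 and 6.18 in BEC. At E18.5 Reln read 11.20, 11.69 and 11.60 in LEC and 5.89, 5.58 and 5.34 in BEC. The BEC ages descended with no overlap, while in LEC the E14.5 arrays were lowest and the 2 later ages overlapped. In BEC Reln fell by 1.71 ± 0.15 in the first step (adjusted p = 1.3e-06) and fell by 0.63 in the second (adjusted p = 0.0037). In LEC the change over the whole span was 0.54 ± 0.15 (adjusted p = 0.0057). The first LEC step alone was 0.44 (adjusted p = 0.055), which passed the threshold in several other settings, among them the fit without the E18.5 arrays (adjusted p = 0.012). Reln had the largest difference between LEC and BEC changes of the 10 genes from E14.5 to E16.5, 2.15 ± 0.21 (adjusted p = 1.1e-05), and held rank 19 in that measure among all genes. The LEC minus BEC difference was 3.00, 5.15 and 5.89 at the successive ages. From E16.5 to E18.5 the LEC change exceeded the BEC change by 0.74 ± 0.21 (adjusted p = 0.056). That passed the threshold in several other settings, among them quantile normalization (0.04) and the fit without LEC E18.5 replicate 1 (0.015).

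Ptx3 encodes the long pentraxin 3, a secreted pattern recognition protein that binds complement C1q and joins the hyaluronan matrix. Ptx3 was measured at 10.34, 10.43 and 10.53 in LEC at E14.5, against 7.88, 7.47 and 7.81 in BEC. At E16.5 Ptx3 was measured at 9.81, 10.24 and 10.10 in LEC and 5.62, 6.08 and 5.18 in BEC. At E18.5 Ptx3 was measured at 8.98, 9.61 and 9.63 in LEC and 4.62, 3.57 and 4.25 in BEC. In both cell types the 3 ages descended without overlap, and the 3 BEC arrays of E18.5 were below the bound of 4.71, so the LEC level at that age was at least 25.9-fold higher. From E14.5 to E16.5 Ptx3 fell by 2.09 ± 0.24 in BEC (adjusted p = 3.4e-05), a fall exceeded among all genes only by that of the embryonic globin Hbb-y. The next BEC step was -1.48 (adjusted p = 2.2e-04), measured into values below the bound. Ptx3 was the sole member of the 10 to fall in LEC: the change over the whole span was -1.03 ± 0.24 (adjusted p = 0.0021). The LEC step from E16.5 to E18.5 was -0.64 (adjusted p = 0.048), and that call was fragile. Its adjusted p was 0.21 without LEC E18.5 replicate 1 (change -0.43), 0.15 without LEC E16.5 replicate 2, 0.11 without LEC E16.5 replicate 3 and 0.051 to 0.058 without any of 8 other arrays. It was 0.063 after quantile normalization, 0.1 with array weights and 0.068 with trend and robust. The first LEC step was -0.38 (adjusted p = 0.35), and the LEC change minus the BEC change in that step was 1.71 ± 0.34 (adjusted p = 0.0095).

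Fgl2 encodes fibrinogen-like protein 2, a prothrombin-cleaving enzyme when held on the membrane and an immune regulator when secreted, known from macrophages and T cells. Fgl2 had 9.56, 9.97 and 9.75 in LEC at E14.5, against 6.22, 5.65 and 5.83 in BEC. At E16.5 Fgl2 had 11.53, 11.42 and 11.50 in LEC and 6.58, 6.36 and 6.10 in BEC. At E18.5 Fgl2 had 12.05, 12.41 and 12.21 in LEC and 7.11, 6.91 and 7.01 in BEC. The LEC ages ascended with clear gaps, and in BEC the E18.5 arrays were highest while the 2 earlier ages overlapped. Fgl2 rose in LEC by 1.72 ± 0.15 (adjusted p = 5.2e-07) and then by 0.74 (adjusted p = 0.001), together 2.46. It was also the sole member to rise in BEC, by 0.66 ± 0.15 from E16.5 to E18.5 (adjusted p = 0.0031) and by 1.11 over the span (adjusted p = 1.5e-05). The first BEC step was 0.45 (adjusted p = 0.068), which passed the threshold in several other settings, among them array weights (adjusted p = 0.02). The LEC change exceeded the BEC change by 1.28 ± 0.21 in the first step (adjusted p = 0.0022) and by 0.08 ± 0.21 in the second (adjusted p = 0.9). Macrophage markers moved with the LEC rises of Fgl2 and Lyve1. The summed level of the 16 markers ran over 11.03 to 11.10, 11.58 to 12.61 and 12.81 to 13.46 on the LEC arrays of the 3 ages, against 9.35 to 9.50, 8.98 to 9.16 and 9.24 to 9.62 on the BEC arrays. In LEC 12 of the 16 rose in the first step (median 1.08). Below the bound on all 3 arrays were Cd163, Aif1 and Ms4a7 in LEC at E14.5, Ms4a7 alone at E16.5 and no marker at E18.5. In BEC, 8, 9 and 4 of the 16 were below it at the successive ages, Adgre1, Aif1, Itgam and Ms4a7 at all 3 ages. Their part in the values of Fgl2 and Lyve1 was not tested.

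Scg3 encodes secretogranin III, which helps to sort hormones into secretory granules of neuroendocrine cells. Scg3 lay between 2.94 and 3.51 on the 9 LEC arrays and between 2.86 and 3.42 on the 9 BEC arrays, below the bound on all 18. The 6 groups overlapped, with means of 3.04 to 3.23 in LEC and 3.19 in BEC at all 3 ages. No age change of Scg3 passed the test. Values below the bound have no order, so the cluster gives no comparison of LEC with BEC for Scg3.

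Pard6g encodes PAR6 gamma, a scaffold that links atypical protein kinase C and the GTPase Cdc42 in cell polarity. Pard6g stood at 8.57, 8.57 and 8.69 in LEC at E14.5, against 5.91, 5.89 and 6.18 in BEC. At E16.5 Pard6g stood at 9.33, 9.20 and 9.39 in LEC and 4.93, 4.85 and 4.95 in BEC. At E18.5 Pard6g stood at 9.07, 9.26 and 9.51 in LEC and 4.82, 5.11 and 4.84 in BEC. The 2 later ages overlapped in both cell types, and E14.5 stood apart from them, lowest in LEC and highest in BEC. From E14.5 to E16.5 Pard6g rose by 0.70 ± 0.12 in LEC (adjusted p = 6.3e-04) and fell by 1.08 ± 0.12 in BEC (adjusted p = 1.9e-05). The changes differed by 1.78 ± 0.17 (adjusted p = 1.0e-05). From E16.5 to E18.5 the changes were -0.02 in LEC and 0.01 in BEC (adjusted p = 0.89 and 0.94), and the BEC values lay within 0.4 of the bound.

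Tc2n encodes a protein with tandem C2 domains, modules that in related proteins bind membrane lipids, and its role in endothelium is little known. Tc2n was at 9.03, 9.13 and 9.15 in LEC at E14.5, against 6.34, 5.65 and 6.18 in BEC. At E16.5 Tc2n was at 9.54, 9.70 and 9.45 in LEC and 4.80, 5.59 and 4.88 in BEC. At E18.5 Tc2n was at 10.33, 10.44 and 10.10 in LEC and 5.55, 4.62 and 5.03 in BEC. The LEC ages ascended without overlap, and in BEC the 2 later ages overlapped below E14.5, with 1 array of E18.5 under the bound. In LEC the first step of Tc2n was 0.46 (adjusted p = 0.2) and the second a rise of 0.73 ± 0.22 (adjusted p = 0.016), which adds to 1.19 (adjusted p = 2.5e-04). The second call was lost without LEC E16.5 replicate 3 (0.67, adjusted p = 0.057) or LEC E18.5 replicate 2 (0.65, adjusted p = 0.058). In BEC Tc2n fell by 0.96 ± 0.22 from E14.5 to E16.5 (adjusted p = 0.01), and without BEC E14.5 replicate 1 the change was -0.82 (adjusted p = 0.056). The LEC and BEC changes in that step differed by 1.42 ± 0.31 (adjusted p = 0.017). That call was lost without BEC E14.5 replicate 1 (1.28, adjusted p = 0.059), BEC E16.5 replicate 1 (1.28, 0.055) or BEC E16.5 replicate 3 (1.32, 0.05).

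Klhl4 is an X-linked member of the Kelch-like family, many of which bring substrates to the CUL3 ubiquitin ligase. Klhl4 read 11.50, 11.49 and 11.74 in LEC at E14.5, against 10.86, 10.45 and 10.64 in BEC. At E16.5 Klhl4 read 11.84, 11.92 and 11.95 in LEC and 10.30, 10.29 and 10.26 in BEC. At E18.5 Klhl4 read 11.78, 12.25 and 12.08 in LEC and 9.69, 9.22 and 9.71 in BEC. The LEC arrays were above the BEC arrays at each age, yet all 9 BEC values were far above the bound, and the LEC minus BEC difference was 0.92, 1.62 and 2.49 at the successive ages. In BEC Klhl4 fell by 0.74 ± 0.14 in the second step (adjusted p = 8.6e-04), and the first step was -0.37 (adjusted p = 0.11). In LEC it rose by 0.46 ± 0.14 over the whole span (adjusted p = 0.014), a call lost without LEC E14.5 replicate 1 or 2 (0.42, adjusted p = 0.055) or LEC E18.5 replicate 2 (0.35, adjusted p = 0.076). It was the sole member for which this test called a difference between LEC and BEC changes from E16.5 to E18.5, 0.87 ± 0.20 (adjusted p = 0.02). With litter as a fixed block the adjusted p was 0.06, without LEC E16.5 replicate 1 it was 0.054 and without LEC E18.5 replicate 2 it was 0.051. Reln and Lyve1 had such a call only in other settings, given above.

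Fxyd6 encodes a small membrane protein that modulates the sodium pump, Na,K-ATPase. Fxyd6 had 8.97, 9.07 and 9.38 in LEC at E14.5, against 7.66, 7.53 and 7.71 in BEC. At E16.5 Fxyd6 had 9.69, 9.56 and 9.80 in LEC and 7.05, 6.93 and 6.68 in BEC. At E18.5 Fxyd6 had 9.77, 10.15 and 10.21 in LEC and 6.98, 6.60 and 7.17 in BEC. In both cell types E14.5 stood apart and the 2 later ages overlapped, with LEC lowest and BEC highest at E14.5. From E14.5 to E16.5 Fxyd6 fell by 0.75 ± 0.15 in BEC (adjusted p = 0.0049) and rose by 0.54 ± 0.15 in LEC (adjusted p = 0.024). The LEC rise was lost without LEC E14.5 replicate 1 (0.46, adjusted p = 0.11) or 2 (0.51, 0.083) and without LEC E16.5 replicate 1 (0.54, 0.07) or 3 (0.48, 0.089). Over the whole LEC span the rise was 0.91 (adjusted p = 9.7e-05). The changes differed by 1.29 ± 0.22 (adjusted p = 0.0024).

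Counted over the 10 genes, the step with the most calls was that from E14.5 to E16.5, and BEC gave more of them than LEC. In that step 6 of the 10 fell in BEC (Reln, Pdpn, Ptx3, Pard6g, Tc2n and Fxyd6) and 0 rose, where 4.66% of all genes fell and 5.1% rose. The median change of the 10 was -0.86, beside -0.05 over all genes. In LEC 4 rose (Lyve1, Fgl2, Pard6g and Fxyd6) and 0 fell, where 8.07% of all genes rose and 5.72% fell. The difference between the LEC and BEC changes was above 0 and called for 8 of the 10, all but Scg3 and Klhl4 (0.70, adjusted p = 0.08), against 1.89% of all genes called in that direction and 0.742% in the other. For Klhl4 it passed the threshold in several other settings, among them array weights (adjusted p = 0.01). This measure is the LEC minus BEC value at E16.5 less that at E14.5. Choosing genes on such values can favour it, so the count only describes the set. The median difference over the 10 was 1.30, beside 0.02 over all genes.

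From E16.5 to E18.5 fewer of the 10 were called, while a larger share of all genes changed. In LEC, Fgl2 and Tc2n rose and Ptx3 fell, where 15.9% of all genes rose and 18.5% fell. In BEC, Fgl2 rose and Reln, Ptx3 and Klhl4 fell, where 15.8% rose and 16.4% fell. The difference between these changes was called for Klhl4 alone, beside 1.53% of all genes higher and 2.12% lower. Over the whole span 7 of the 10 rose and 1 fell in LEC (all genes 19.7% and 21.2%), and 1 rose and 8 fell in BEC (13.3% and 17.3%). The E18.5 arrays had the narrowest spread of values, an interquartile range of 3.18 to 3.36 against 3.4 to 3.64 at the earlier ages. Each array's lowest correlation within its group was 0.976 to 0.981 at E18.5 and 0.984 to 0.991 before. Changes with age into E18.5 cannot be told apart from this difference between arrays.

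**Figure D3:**
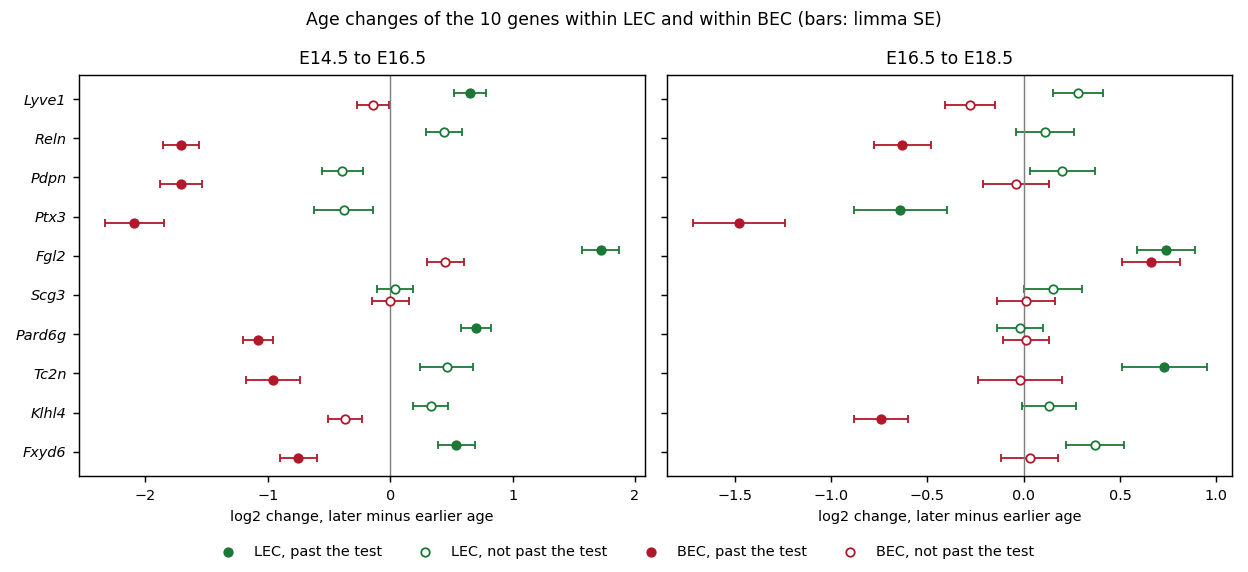
Change in log2 level from the earlier to the later age (horizontal axis) for each of the 10 genes, from E14.5 to E16.5 at left and from E16.5 to E18.5 at right, in LEC (green) and BEC (red). Filled points passed limma at an adjusted p under 0.05 and bars are standard errors; in the left panel the called LEC points lie right of 0 and the called BEC points left of 0.

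Among the largest BEC falls from E14.5 to E16.5, a list examined after its values were seen, other genes that were high in LEC stood beside the members. The 12 largest falls were led by Hbb-y, followed by Ptx3, Prox1, Mrc1, Reln, Pdpn, Hapln1, Hba-x, Macrod2, Sema3d, St8sia1 and Nnat. Hbb-y, Hba-x and Macrod2 were not higher in LEC, with LEC minus BEC differences over the 3 ages of -0.86, -0.84 and -0.01. Prox1, the transcription factor that sets lymphatic identity, fell by 1.94 ± 0.15 (adjusted p = 7.7e-07) and Sema3d, a secreted guidance protein, fell by 1.48 (adjusted p = 7.5e-05). Of the 11 measured lymphatic markers, which do not include the 10 genes, 7 fell in BEC in this step and 0 rose (median -0.78). Their summed level in BEC was 12.46 to 12.56 at E14.5, 11.99 to 12.04 at E16.5 and 11.74 to 11.91 at E18.5, and no marker was below the bound on all 3 arrays of any age. In LEC the sums were 13.75 to 13.76, 13.93 to 14.02 and 14.01 to 14.15 at the same ages. Mrc1, named above among the largest falls, is on the macrophage list. It was the 1 of the 16 macrophage markers that fell in BEC in this step, and 0 rose (median -0.10). Markers of mural cells, which wrap blood vessels, moved the other way in BEC: 6 of 10 rose and 0 fell (median 0.83), and by E18.5 all 10 were higher than at E14.5. Their summed level was 9.0 to 9.21, 9.63 to 9.85 and 10.24 to 10.35 in LEC at the 3 ages, against 8.97 to 9.15, 10.08 to 10.33 and 11.61 to 11.98 in BEC. In BEC Des was below the bound on all 3 arrays of E14.5, and no mural marker was at the later ages. Of 7 erythroid markers, 4 fell in BEC in this step and 0 rose (median -0.48). The part of these markers in the BEC falls of the members was not tested.

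The gene whose pattern over the 18 arrays was most like that of Reln was Rnf141 (Pearson r 0.995), then Prox1 (0.995) and Sema3d (0.994). For Lyve1 the nearest were Ston2 (0.993), Zdhhc2 (0.992) and the sodium channel gene Scn3a (0.991), and for Pard6g Ston2 (0.994), Scn3a (0.992) and Prox1 (0.990). Klhl4 was nearest to Mmrn1 (0.991), Ptx3 to Prkcq (0.989), Pdpn to Sgk3 (0.989), Fgl2 to Flnc (0.986), Tc2n to Sema3d (0.991) and Fxyd6 to Nrcam (0.990). These correlations are descriptions over arrays that share 6 groups, and a difference between LEC and BEC alone makes them high. Over the 9 LEC arrays the nearest gene to Fgl2 was Cp (0.999), which encodes ceruloplasmin, and the nearest to Lyve1 was Gpm6a (0.994).

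Within the set, over the 9 LEC arrays, Lyve1 and Fgl2 had r = 0.99 and Reln and Klhl4 0.97, while Ptx3 and Tc2n had -0.87. Over the 9 BEC arrays Reln and Ptx3 had r = 0.97 and Fgl2 and Ptx3 -0.83. These too are descriptions over 3 ages. The members followed different courses: Fgl2 climbed in both cell types, Ptx3 descended in both, and Pard6g and Fxyd6 were higher in LEC and lower in BEC at E16.5 than at E14.5.

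Genes of the pathways in which the 10 act were then examined from lists of partners and relatives, with the members left out. They cover 10 pathway lists. Among 18 polarity genes beside Pard6g, 7 were higher and 1 lower in LEC over the 3 ages (median 0.15). Prkcz, the atypical protein kinase C that PAR6 binds, was higher by 3.79 ± 0.10 and ranked 13th of all genes. Its mean was 9.42 ± 0.14, 9.97 ± 0.08 and 9.45 ± 0.10 in LEC at the 3 ages, against 6.92 ± 0.34, 5.65 ± 0.16 and 4.93 ± 0.35 in BEC (SD, n = 3 arrays each). In BEC Prkcz fell by 1.27 ± 0.17 from E14.5 to E16.5 (adjusted p = 1.2e-04) and in LEC it rose by 0.55 (adjusted p = 0.033), a difference of 1.83 (adjusted p = 2.0e-04). Pard3, the scaffold of the same complex, was higher in LEC by 1.75, changed by -0.96 in BEC in that step (adjusted p = 1.2e-05) and by 0.39 in LEC (adjusted p = 0.015). Tiam1, an activator of the GTPase Rac, was higher in LEC by 1.61, and Llgl1, a basolateral polarity gene, lower (-0.52).

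Of 17 reelin pathway members, LEC had 6 higher and 7 lower than BEC (median -0.04), so no direction was shared. Vldlr, a reelin receptor, was higher by 2.13, and Dab2, an endocytic adaptor, by 2.17. Pcsk6, a convertase that can cleave reelin, was higher by 2.23, while Rapgef1 (-1.12), Itga3 (-1.0) and Adamts4 (-0.93) were lower. The reelin protease gene Adamts5 averaged 5.41 ± 0.15, 7.65 ± 0.15 and 9.05 ± 0.08 in LEC at the 3 ages, against 4.61 ± 0.12, 5.33 ± 0.14 and 6.02 ± 0.29 in BEC (SD, n = 3 arrays each), where the E14.5 arrays were below the bound. From E14.5 to E18.5 in LEC, Adamts5 rose by 3.65 (adjusted p = 1.7e-12) and Vldlr by 1.97 (adjusted p = 6.4e-09), and the other receptor, Lrp8, fell by 1.0 (adjusted p = 7.1e-06).

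Beside Lyve1, 17 genes of a hyaluronan list were measured, most of which bind, make or break down hyaluronan, and LEC had 6 of them higher and 4 lower than BEC (median -0.05). Hapln1, a link protein that fixes hyaluronan to proteoglycans, was higher by 3.39 ± 0.16, and Stab1, a scavenger receptor of LEC and macrophages, by 1.87. Ptgs2, on the same list, encodes a cyclooxygenase and not a hyaluronan protein, and was higher by 2.26. In BEC Hapln1 fell by 1.70 ± 0.27 from E14.5 to E16.5 (adjusted p = 7.1e-04), and its change in LEC exceeded that in BEC by 2.01 (adjusted p = 0.0068). The hyaluronan receptor gene Cd44 was higher in LEC by 1.34 and rose there by 1.43 from E14.5 to E18.5 (adjusted p = 3.5e-08). Tnfaip6, which encodes a hyaluronan-binding protein that works with PTX3, was lower in LEC (-0.68), with 9 of 18 arrays below the bound.

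For podoplanin, 14 genes of binding partners and O-glycosylation were measured, with 8 higher and 3 lower in LEC than in BEC (median 0.26). Lcp2, an adaptor of blood cell signalling, had the largest difference, 2.92, and Clec1b, which encodes CLEC-2, was lower (-0.73) but below the bound on 16 of 18 arrays. Of 15 genes of humoral innate recognition beside Ptx3, 9 were higher and 2 lower (median 0.31). Fcgr3 was higher by 2.92, with 5 of 18 arrays below the bound. C1qb averaged 5.08 ± 0.17, 7.44 ± 0.81 and 8.04 ± 0.26 in LEC at the 3 ages (SD, n = 3 arrays each), against BEC arrays that were all below the bound at E14.5 and E16.5. C1qc showed the same: 5.09 ± 0.21, 7.12 ± 0.85 and 7.88 ± 0.23 in LEC, with all BEC arrays of those 2 ages below the bound. These 3 genes are typical of macrophages, whose marker levels are given above, and the part of such cells was not tested.

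Of 18 genes with fibrinogen domains beside Fgl2, 6 were higher and 1 lower in LEC, among them Tnc (2.44) and Angpt2 (1.49), an angiopoietin needed for lymphatic growth in mice. Of 12 granin and prohormone genes beside Scg3, 2 were higher, Cpe (2.22) and Cadps2 (1.13, with 7 of 18 arrays below the bound). Of 24 tandem C2-domain genes beside Tc2n, 2 were higher and 5 lower, with Syt15 at -1.99 and Sytl3, below the bound on 10 of 18 arrays, at 1.51. Of 38 Kelch-like and CUL3 genes beside Klhl4, 5 were higher and 6 lower, and the highest was Klhl5 at 0.44. Of 11 FXYD and sodium pump genes beside Fxyd6, 1 was higher (Fxyd5, 0.48) and 2 lower, Atp1b2 (-0.26) and Atp1b4, which was below the bound on all 18 arrays and so gives no comparison. The share of genes called in these lists can be set beside the 18.2% higher and 19% lower over all genes.

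**Figure D4:**
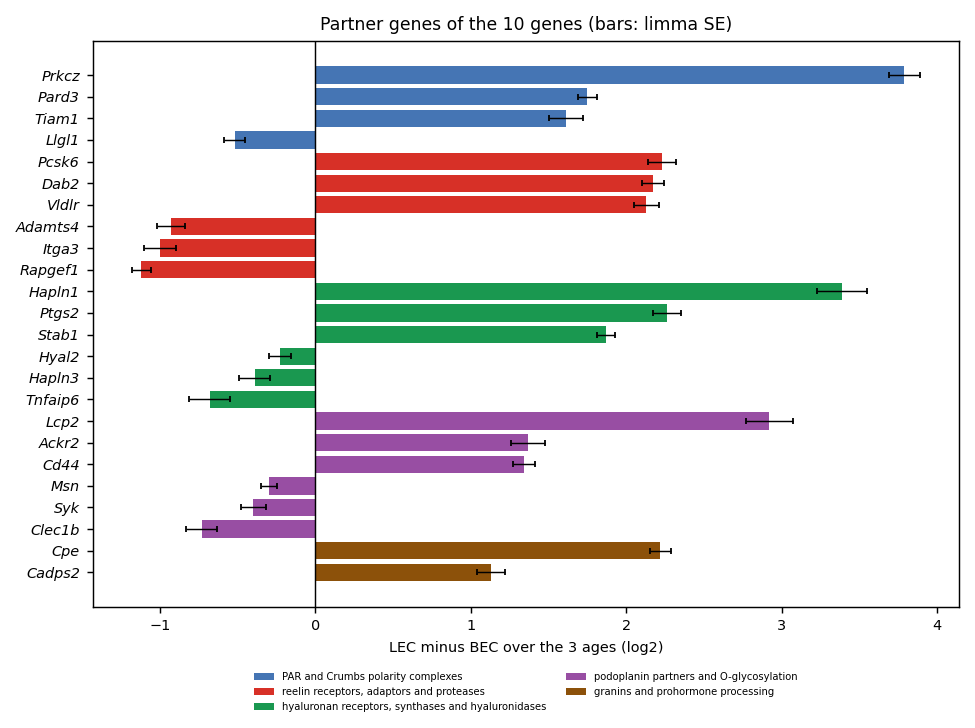
LEC minus BEC difference over the 3 ages in log2 units (horizontal axis) of named partner genes from 5 of the pathway lists, with limma standard errors as whiskers and the members left out. Prkcz and Hapln1 extend farthest to the right (3.79 and 3.39), and Rapgef1 farthest to the left (-1.12); Clec1b was below the background bound on 16 of 18 arrays, Hapln3 on 10, Tnfaip6 on 9 and Cadps2 on 7.

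Marker genes of cells other than endothelium are given beside the age changes because several of the 10 are known from such cells. Mast cell sums in LEC were 13.53 to 14.06, 14.60 to 14.66 and 14.21 to 14.58 at the 3 ages, against 11.44 to 12.32, 12.44 to 12.67 and 10.24 to 12.08 in BEC. Keratinocyte and epithelial sums in LEC were 9.16 to 9.36, 9.0 to 9.89 and 11.14 to 11.88, against 8.64 to 8.86, 8.43 to 8.70 and 9.62 to 10.16 in BEC. The keratinocyte sums were highest at E18.5 in both cell types. In LEC 0 of the 12 markers were called higher from E14.5 to E16.5, the step in which Fgl2 rose by 1.72. From E16.5 to E18.5, 9 of the 12 rose in LEC, where Fgl2 rose by 0.74 and Tc2n by 0.73. Pdpn, a keratinocyte gene as well, differed by 0.20 in LEC and -0.04 in BEC in that step. Of the other lists, 1 of 10 fibroblast markers was higher and 3 lower in LEC (median -0.11), 1 of 10 mural cell markers higher and 9 lower (-0.94), 0 of 8 neuron and Schwann cell markers called, and 4 of 7 erythroid markers lower (-0.26). The part of these cells in the members' values was not tested.

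**Figure D5:**
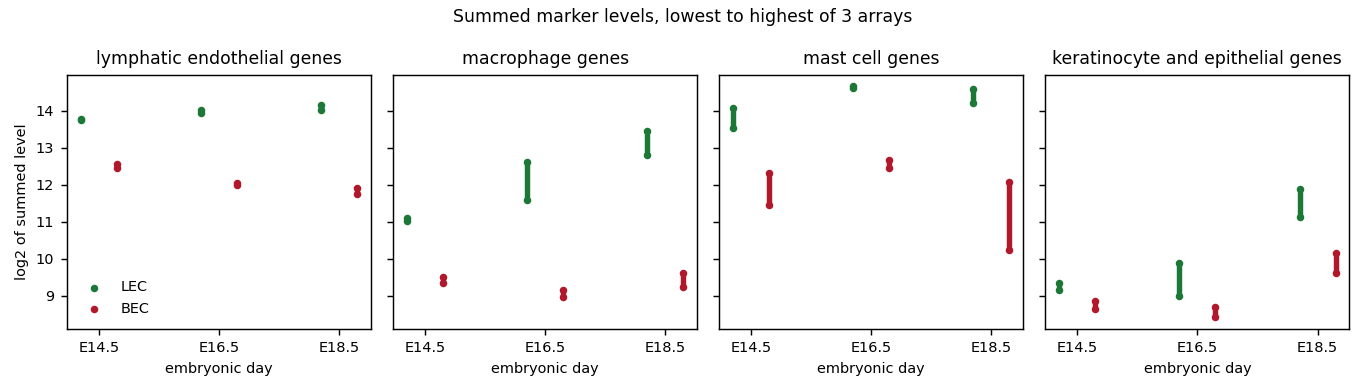
Summed marker level, as log2 of the sum of linear values (vertical axis), drawn from the lowest to the highest of 3 arrays for the lymphatic endothelial, macrophage, mast cell and keratinocyte lists at the 3 embryonic ages (horizontal axis), LEC in green and BEC in red. LEC points lie above BEC points in each panel at each age, and the macrophage sum in LEC climbs from about the level of 11.03 at E14.5 to 13.46 at E18.5.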

How the data were processed

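RNA of LEC and BEC was measured on 18 one-colour arrays, 3 in each of 6 groups taken from the labels. The deposited values are log2 expression values per transcript cluster, made by the authors with the R package oligo (1.54.1) by RMA, which corrects background, equalises the arrays' distributions and summarises probes, per the submitters' processing notes. It is not given in the sources used here which arrays were normalized in 1 run, at which level probes were summarised, or what was filtered. The table held 35556 clusters, of which 23410 were annotated, 21789 with 1 symbol and 1621 with several, which were left out. By Entrez identifier 21698 of these matched a current gene, with 0 symbols updated. The cluster with the highest mean stood for each of 999 genes with more than 1, which left 19938 genes. Probes can bind near-identical relatives of a gene.

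The model was a mean for each group, fitted with lmFit and eBayes of limma 3.58.1 (R 4.3.3), with 12 residual and 6.11 prior degrees of freedom. P values are two-sided; the Benjamini-Hochberg adjustment runs over all genes of a comparison, with calls at under 0.05. Errors are limma standard errors unless named SD. The fit was tested on simulated data. There is no read depth on an array, so precision is limited by how many arrays there are.

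The members, the 10 marker and 10 pathway lists (291 of 308 genes measured) and the tests were chosen with earlier results of these data known, and the motifs after the values were seen. The LEC minus BEC difference chose the members and is given for them without a test. The difference between LEC and BEC changes is made of it and was tested, so those tests are not free of the choice. Partner genes were named by size: up to 3 higher and 3 lower among those called in each pathway list, and up to 2 each way for E18.5 minus E14.5 in LEC, with changes in other steps given for some of them after their values were seen. Likeness passes over predicted genes and genes below the bound on every array.

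The design text gives LEC and BEC of shared litters, without saying that the replicate number marks the litter. Deviations of same-numbered LEC and BEC arrays correlated at -0.11 to 0.13, and of all pairs of an age at -0.18 to 0.16. Litter was therefore an alternative, as a fixed and as a random block. The other alternatives were quantile normalization, median shifting, array weights, only the compared groups and eBayes with trend and robust. Genes above the bound only, and the mean of all clusters of a gene, were further alternatives. Each array was also left out in turn and, chosen after seeing the data, the E18.5 arrays were left out.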

Additional observations from a re-analysis of the deposited data

Results flagged for a closer look

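For 8 of the 10 genes the change from E14.5 to E16.5 differed between LEC and BEC by a test of the difference itself (limma, adjusted p under 0.05), with 3 arrays a group. That difference is made of LEC minus BEC values, on which the genes were chosen, so the count only describes the set. The LEC change minus the BEC change was 2.15 for Reln, 1.78 for Pard6g, 1.71 for Ptx3, 1.42 for Tc2n, 1.31 for Pdpn, 1.29 for Fxyd6, 1.28 for Fgl2 and 0.79 for Lyve1 on the log2 scale. Both separate changes passed the test, a rise in LEC and a fall in BEC, for Pard6g and Fxyd6. For the other 6 genes 1 of the 2 did. Lyve1 rose in LEC, with a BEC value of -0.14 (adjusted p = 0.53), and Fgl2 rose in LEC, with a BEC value of 0.45 (0.068). Reln, Tc2n, Pdpn and Ptx3 fell in BEC, with LEC values of 0.44 (adjusted p = 0.055), 0.46 (0.2), -0.39 (0.14) and -0.38 (0.35). Of these uncalled values, that of Fgl2 in BEC and those of Reln, Tc2n and Pdpn in LEC passed in at least 1 other setting. From E16.5 to E18.5 the difference was called for Klhl4, at 0.87. Groups of 3 arrays were not examined for outlying samples.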

How the results depend on the processing

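Over 3218 combinations of a member, a comparison and an alternative, 3135 kept their direction and their side of the threshold, 40 gained a call, 43 lost one and 0 called values changed sign; 48 values that were not called, between -0.14 and 0.23 in the alternative, did. These combinations include the LEC minus BEC comparisons, whose values chose the members, so the total is not one of age changes alone. They also include the mean of all clusters of a gene, which could not move a member's value because each member had a single cluster. Counts of calls moved more than single calls. For E18.5 LEC against BEC, 6071 genes were called in the fit of all groups and 3707 with only the compared groups. For the LEC step from E14.5 to E16.5, array weights called 7 members and 4544 genes, against 4 and 2749, and leaving out 1 array gave 1758 to 3090 genes. For the LEC step from E16.5 to E18.5, leaving out 1 array gave 1 to 4 members, against 3. For the BEC step from E14.5 to E16.5, array weights called 4022 genes, the fit without the E18.5 arrays 3318 and leaving out 1 array 850 to 2238, against 1945. For the difference between LEC and BEC changes in that step, array weights called 1215 genes, both the compared groups alone and the fit without E18.5 called 839, and leaving out 1 array gave 310 to 589, against 524. For the same difference from E16.5 to E18.5, quantile normalization and the filter on dim genes each called 2 members, trend with robust 3, and leaving out 1 array 0 to 3, against 1. Array weights called 395 genes there, the compared groups alone 351 and leaving out 1 array 431 to 995, against 728. The cause was not tested, beyond the fewer arrays in some fits. With litter as a fixed replicate block 0 members were called in that comparison, and Lyve1 (adjusted p = 0.061) was lost in the step before. The fixed block ended no other member's call of a difference between LEC and BEC changes. In that fit each litter belongs to a single age, so age changes within LEC or within BEC could not be put to it. Litter as a random block, with a litter correlation of 0.015, changed no call of a member. Levels near 4.71 limit what can be read of Ptx3, Tc2n and Pard6g in BEC.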
